A study of Mus musculus with 6 samples.

Results

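Clade B serpins are protease inhibitors that act mostly inside cells, and 27 of them are among the 21367 genes of the deposited table. The 6 described here are Serpinb1a, Serpinb6a, Serpinb6b, Serpinb8, Serpinb9 and Serpinb9b. They were selected by gene symbol from a list drawn up with the Ptpn6+/mev and wild-type levels in view, so their levels and differences between the groups are given as a description. No p-value is given for them, and counts of calls among them say only where these selected genes fell.

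Kidney mRNA was sequenced from 3 Ptpn6+/mev mice and 3 wild-type littermates on the C57BL/6 background, and each mouse gave 1 library. The heterozygotes have 1 copy of viable motheaten, an allele of Ptpn6 with a T-to-A change at a splice site, and the other copy is intact. Ptpn6 encodes the phosphatase SHP-1, and the labels name this genotype an SHP1 knockdown. All mice of both groups were 7 weeks old, had lost the right kidney to surgery, underwent 34 min of clamping of the left renal pedicle, and gave the left kidney 24 h after reperfusion. The allele is inherited and not limited to a cell type, and the tissue is whole kidney, in which fewer cells of a type and less RNA per cell cannot be told apart. Kidneys without ischemia were not analysed here.

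A serpin inhibits a protease by offering its reactive centre loop, a stretch near the end of the protein, as bait. When the protease cuts the loop, the serpin changes shape and traps the enzyme. The loop therefore largely sets which protease is caught, while the rest of the fold is shared across the family. Clade B members lack a classical secretion signal and are known for guarding cells against their own granule and lysosomal proteases, or against granzymes delivered by cytotoxic lymphocytes.

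Total counts per library ranged from 10271590 to 12361745. Ptpn6 itself was at 11.85, 14.66 and 13.61 FPKM (fragments scaled to transcript length and library total) in the Ptpn6+/mev mice and at 17.47, 10.87 and 15.44 FPKM in the wild-type mice. These ranges overlapped, and the log2 fold change of -0.19 ± 0.17 (SE) did not pass the test (adjusted p = 0.715, edgeR quasi-likelihood). Without wild-type replicate 2 it was -0.34 ± 0.12 (adjusted p = 0.201), with every Ptpn6+/mev library below both wild-type libraries. A splice mutation need not lower the amount of mRNA, so this level checks the labels only weakly. Wild-type replicate 2 stood apart from the other libraries. Its summed FPKM of 5 endothelial markers was 49.8, against 115 to 124 in the other libraries, that of 4 fibroblast markers was 21.8 against 63.6 to 107, and that of the macrophage and monocyte markers was 120 against 182 to 290. Differences of the members are given with and without it.

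The coding sequence of the reactive loop is shown for the 6 members because the loop largely sets which protease is caught. Each run is the coding strand from 5′ to 3′, from the 9 codons of the conserved hinge to the 7 codons of a conserved motif after the loop. Capitals mark the codons between them, which hold the bait. All stretches lie in exon 7 of 7 and were read from GENCODE M21 transcripts (GRCm38).
Serpinb1a: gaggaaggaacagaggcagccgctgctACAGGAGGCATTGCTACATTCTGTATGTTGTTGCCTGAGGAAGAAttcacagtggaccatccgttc
Serpinb6a: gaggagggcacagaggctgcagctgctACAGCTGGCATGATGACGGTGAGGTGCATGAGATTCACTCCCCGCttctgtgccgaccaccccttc
Serpinb6b: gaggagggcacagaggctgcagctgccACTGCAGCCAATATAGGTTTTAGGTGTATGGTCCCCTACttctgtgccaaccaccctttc
Serpinb8: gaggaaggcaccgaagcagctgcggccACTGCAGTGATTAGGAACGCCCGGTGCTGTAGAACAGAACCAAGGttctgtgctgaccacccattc
Serpinb9: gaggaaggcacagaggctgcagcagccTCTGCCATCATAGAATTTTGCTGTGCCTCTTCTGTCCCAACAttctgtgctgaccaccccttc
Serpinb9b: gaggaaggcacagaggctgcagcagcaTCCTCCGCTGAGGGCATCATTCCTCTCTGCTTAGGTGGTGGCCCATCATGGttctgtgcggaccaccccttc

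The stretches lie at chr13:32842884-32842976 on the minus strand for Serpinb1a and chr13:33918107-33918199 on the minus strand for Serpinb6a. On the plus strand lie those of Serpinb6b at chr13:32978201-32978287, of Serpinb8 at chr1:107607167-107607259, of Serpinb9 at chr13:33015693-33015782 and of Serpinb9b at chr13:33039796-33039894. The hinge and the closing motif are similar in every member, whereas the part in capitals varies in letters and in length, from 13 codons in Serpinb6b to 17 in Serpinb9b. Serpinb9 and Serpinb9b were 85.4% identical over the whole coding sequence but 47.1% identical over the part in capitals. For Serpinb6a and Serpinb6b the same values were 85.7% and 53.3%. Every other pair of members was 58.0% to 67.2% identical over the coding sequence. Over the part in capitals the other pairs were 41.2% to 53.5% identical, a range that includes the values of both paralog pairs. The longest run of bases shared by Serpinb9 and Serpinb9b was 62, which is shorter than a sequencing read of this study.

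Among the members, 5 lie in a group of 15 clade B genes on chromosome 13 that spans 1161 kb, and Serpinb8 lies in a group of 12 on chromosome 1 that spans 749 kb. Serpinb6b, Serpinb9 and Serpinb9b are neighbours on the plus strand, with 24182 bases between Serpinb6b and Serpinb9 and 9458 between Serpinb9 and Serpinb9b. Serpinb1a and Serpinb6a lie at opposite ends of the chromosome 13 group. Between Serpinb9b and Serpinb6a lie 9 clade B genes, each at a mean of 0.11 FPKM or less in either group.

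**Figure D1:**
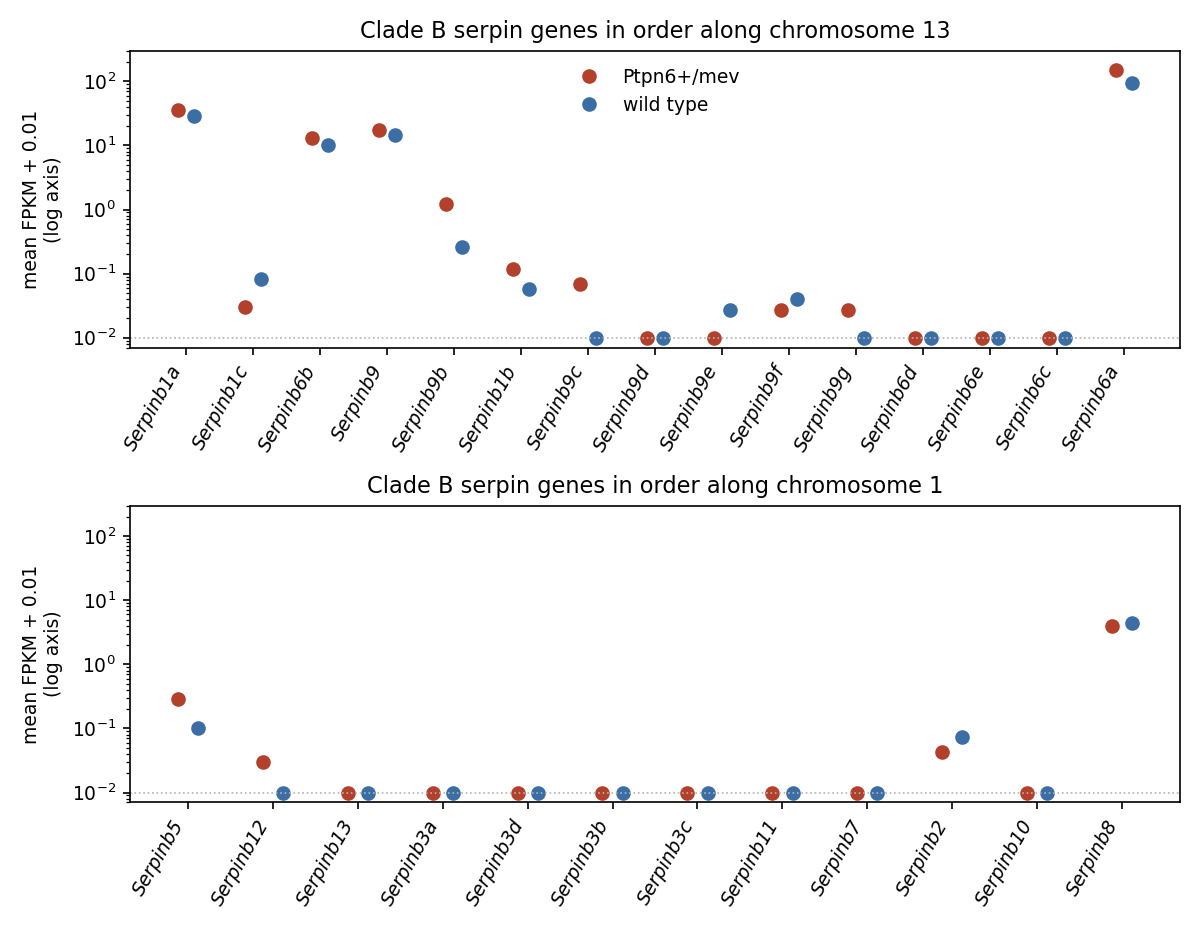
Mean FPKM plus 0.01 (log axis) of each clade B serpin gene in the Ptpn6+/mev (red) and wild-type (blue) groups, 3 mice each, with genes in order along chromosomes 13 and 1 and not to scale. The dotted line marks genes listed at 0; the 6 members alone exceed 1 FPKM in a group.

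The members accounted for 99.7% to 99.8% of the summed FPKM of all 27 clade B serpins in each library. Their order by level was the same in all 6 libraries: Serpinb6a, then Serpinb1a, Serpinb9, Serpinb6b, Serpinb8 and Serpinb9b. Over the 6 libraries the mean levels were 122.7 FPKM for Serpinb6a, 31.9 for Serpinb1a, 16.0 for Serpinb9, 11.5 for Serpinb6b, 4.21 for Serpinb8 and 0.742 for Serpinb9b. Within each library no neighbours in this order changed places, but across libraries the ranges of Serpinb9 (10.99 to 21.14 FPKM) and Serpinb6b (9.31 to 13.65 FPKM) overlapped. Serpinb6a alone made up 66.6% to 69.8% of the clade B sum in the Ptpn6+/mev mice and 53.1% to 67.7% in the wild-type mice, with the lowest share in wild-type replicate 2. The clade B sum was 218 to 224 FPKM in the Ptpn6+/mev mice and 152 to 158 FPKM in the wild-type mice. Most of this sum was Serpinb6a, whose own groups were 42 FPKM apart. Serpinb1a and Serpinb9, the next in level, overlapped between the groups, so the gap in the sum does not describe a rise of every member.

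Against wild type, 5 of the 6 members had a positive log2 fold change in Ptpn6+/mev kidneys and Serpinb8 a slightly negative one. For Serpinb6a, Serpinb6b and Serpinb9b every Ptpn6+/mev library was above every wild-type library, and for Serpinb1a, Serpinb8 and Serpinb9 the groups overlapped. Among all 13036 tested genes 14.0% were likewise higher in every Ptpn6+/mev library, and since the members were chosen on this contrast nothing is read from their count. The median log2 fold change was 0.23 over the 6 members and -0.0024 over all tested genes.

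**Figure D2:**
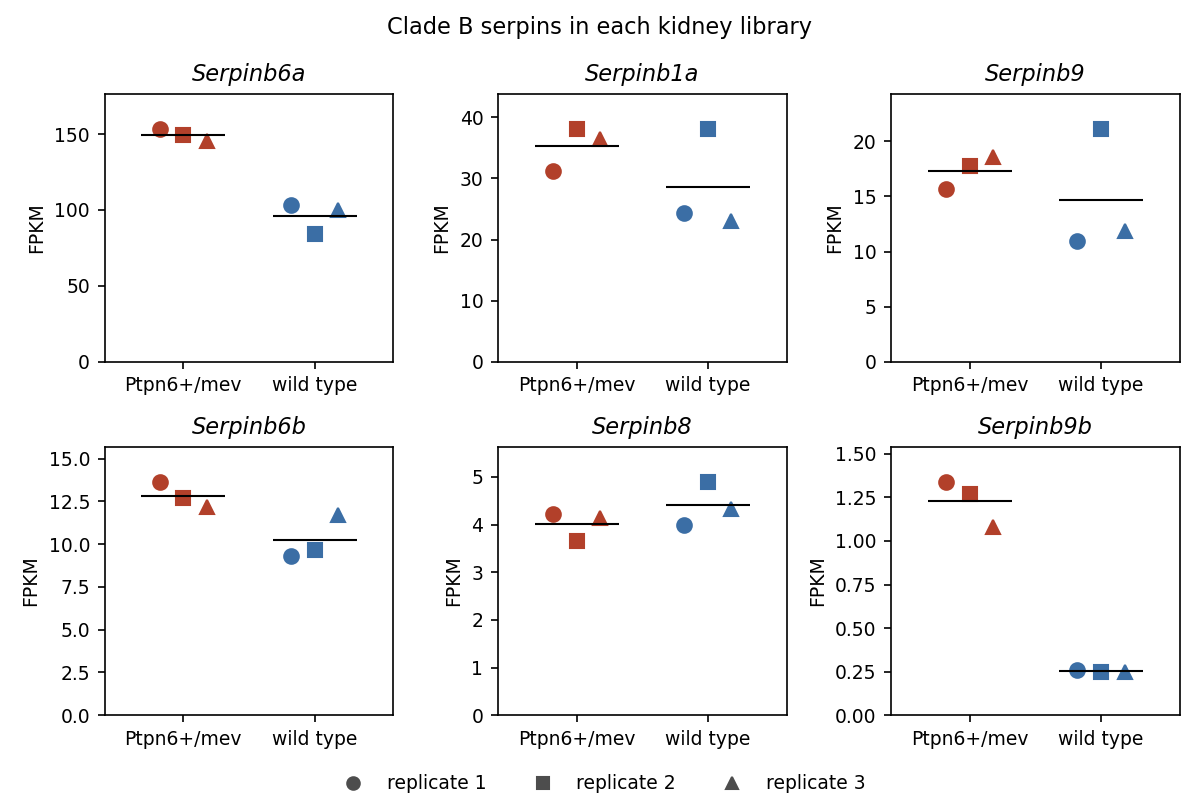
FPKM of each clade B serpin in each library of the Ptpn6+/mev (red) and wild-type (blue) groups, with symbols for replicates 1 to 3 and a line at the group mean; every vertical axis starts at 0. The groups are apart for Serpinb6a, Serpinb6b and Serpinb9b, and wild-type replicate 2 (blue square) is the highest of the 6 libraries for Serpinb1a, Serpinb9 and Serpinb8.

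Serpinb9b, a close paralog of the granzyme B inhibitor gene Serpinb9, is linked to inhibition of granzyme M. It had the lowest level of the members and, as a ratio, the widest separation of the groups. Its levels were 1.34, 1.27 and 1.08 FPKM in Ptpn6+/mev replicates 1 to 3 and 0.26, 0.25 and 0.25 FPKM in the wild-type mice. The counts behind them were 45, 43 and 38 against 9, 9 and 10. The group means were 1.23 ± 0.13 and 0.253 ± 0.0058 FPKM (SD, n = 3 each), a ratio of 4.86, and the log2 fold change from counts was 2.21 ± 0.28 (SE). It was 2.24 without wild-type replicate 2.

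All 6 members passed the filter on low counts, which asked for 0.928 CPM (counts scaled to the library total) in as many libraries as a group holds. Serpinb9b, unlike the other 5, passed it only through the Ptpn6+/mev libraries, at 3.53 to 4.38 CPM against 0.809 to 0.834 CPM in the wild-type mice. It thus entered the reported fit only because of its level in the Ptpn6+/mev mice. An annotated gene on the opposite strand, Gm36099, shares 278 exon bases with Serpinb9b. The kit is not stated to keep the strand, so reads of these genes cannot be told apart there.

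Serpinb9 encodes the mouse counterpart of the human granzyme B inhibitor PI-9, which protects cytotoxic cells from their own granzyme and antigen-presenting cells from granzyme delivered to them. Its levels were 15.65, 17.78 and 18.57 FPKM in the Ptpn6+/mev mice and 10.99, 21.14 and 11.85 FPKM in the wild-type mice. Wild-type replicate 2 was the highest of all libraries and the other wild-type mice were the lowest. The means were 17.3 ± 1.5 and 14.7 ± 5.6 FPKM (SD, n = 3 each), with a log2 fold change of 0.16 ± 0.26 (SE). Without wild-type replicate 2 the log2 fold change was 0.56 ± 0.11, and without wild-type replicate 1 it was -0.03, so the direction of this gene rests on single libraries.

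Serpinb9 and its neighbour Serpinb9b had log2 fold changes of 0.16 and 2.21, and the 250 bases before their starts are shown to compare the promoters of these close paralogs. They are given on the plus strand as RefSeq lists them for GRCm38.p6, at chr13:33004291-33004540 for Serpinb9 and chr13:33027164-33027413 for Serpinb9b. Capitals mark the only match in Serpinb9 to the interferon-stimulated response element (ISRE), searched as a pair of GAAA half-sites with 2 bases between them and found here on the opposite strand, and the bases of Serpinb9b aligned to it.
Serpinb9: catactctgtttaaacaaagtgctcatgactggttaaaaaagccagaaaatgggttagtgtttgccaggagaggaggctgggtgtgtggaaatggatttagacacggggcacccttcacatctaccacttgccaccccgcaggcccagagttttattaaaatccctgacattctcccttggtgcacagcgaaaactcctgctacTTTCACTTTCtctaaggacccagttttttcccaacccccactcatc
Serpinb9b: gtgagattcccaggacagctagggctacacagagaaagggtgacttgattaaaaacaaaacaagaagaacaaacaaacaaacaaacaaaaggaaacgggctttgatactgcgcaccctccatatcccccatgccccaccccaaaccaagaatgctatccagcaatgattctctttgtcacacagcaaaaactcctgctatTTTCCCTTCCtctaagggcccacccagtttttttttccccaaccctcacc

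The match starts 46 bases before the start of Serpinb9, and 8 of its 10 bases are alike in Serpinb9b, which has no match. Both windows were 56.3% identical when aligned end to end. The following were searched on both strands of the 300 bases from 250 before to 50 after each start: the ISRE pair, the STAT site letters TTCNNNGAA (GAS) and the AP-1 site letters TGANTCA. They occur in 3.44%, 8.30% and 7.81% of all 32851 RefSeq promoters of this length. Serpinb6a, for which RefSeq lists a pair of starts, held 1 ISRE match and 2 GAS matches at its upstream start, with the ISRE match overlapping 1 of the GAS matches, and none at the other start. Serpinb8 held 2 AP-1 matches, and Serpinb6b and Serpinb9b held none of the 3. Serpinb1a has no entry in the promoter table. A match describes letters and does not show that a factor binds there.

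Serpinb6a encodes the mouse counterpart of human PI-6, which inhibits cathepsin G and trypsin-like proteases. Its levels were 153.64, 149.49 and 145.41 FPKM in the Ptpn6+/mev mice and 103.36, 84.05 and 99.95 FPKM in the wild-type mice. The groups were well apart, with a gap of 42 FPKM between the lowest Ptpn6+/mev and the highest wild-type mouse. The means were 149.5 ± 4.1 and 95.8 ± 10.3 FPKM (SD, n = 3 each), a ratio of 1.56. From counts the log2 fold change was 0.57 ± 0.08 (SE), the most precise of the members, and it was 0.55 to 0.60 with any single library left out.

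The counts of Serpinb6a were fractional in 5 libraries, as they were for no other member. Their decimals complement those of Ripk1, the gene of a kinase in cell death signalling, whose exons overlap those of Serpinb6a by 241 bases on the opposite strand. In Ptpn6+/mev replicate 1 the counts were 2028.08 for Serpinb6a and 713.92 for Ripk1, and their sum of 2742 is whole. Such sums were whole within 0.005 in all 6 libraries. Exons of Nqo2 and 1110046J04Rik also overlap those of Serpinb6a, by 762 and 584 bases on the opposite strand.

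Serpinb6b, a paralog of Serpinb6a, is known as an inhibitor of granzyme A in the mouse. Its levels were 13.65, 12.68 and 12.15 FPKM in the Ptpn6+/mev mice and 9.31, 9.64 and 11.72 FPKM in the wild-type mice. The groups were apart, but the lowest Ptpn6+/mev mouse and wild-type replicate 3 were close. The means were 12.8 ± 0.76 and 10.2 ± 1.3 FPKM (SD, n = 3 each), and the log2 fold change of 0.25 ± 0.13 (SE) was close to the 0.23 obtained without wild-type replicate 2.

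Serpinb1a encodes the mouse counterpart of human SERPINB1, an inhibitor of neutrophil elastase, cathepsin G and proteinase 3 that neutrophils and other cells hold in their cytoplasm. Its levels were 31.20, 38.01 and 36.43 FPKM in the Ptpn6+/mev mice and 24.35, 38.15 and 23.09 FPKM in the wild-type mice. As with Serpinb9, wild-type replicate 2 reached the top of the range while the other wild-type mice were below every Ptpn6+/mev mouse. The means were 35.2 ± 3.6 and 28.5 ± 8.4 FPKM (SD, n = 3 each). The log2 fold change was 0.21 ± 0.23 (SE) with all libraries and 0.55 ± 0.12 without wild-type replicate 2. It was 0.05 and 0.07 without wild-type replicates 1 and 3, so its size rests on single libraries.

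Serpinb8, known as an inhibitor of the proprotein convertase furin, was the member with the smallest difference when all libraries were used. Its levels were 4.23, 3.66 and 4.14 FPKM in the Ptpn6+/mev mice and 3.99, 4.90 and 4.33 FPKM in the wild-type mice. The groups overlapped, and the means were 4.01 ± 0.31 and 4.41 ± 0.46 FPKM (SD, n = 3 each). The log2 fold change was -0.13 ± 0.16 (SE), and 0.0033 ± 0.15 without wild-type replicate 2. It was -0.21 without wild-type replicate 1 and -0.17 without wild-type replicate 3. In those settings Serpinb9 (-0.03 and 0.0015) and Serpinb1a (0.05 and 0.07) differed less.

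**Figure D3:**
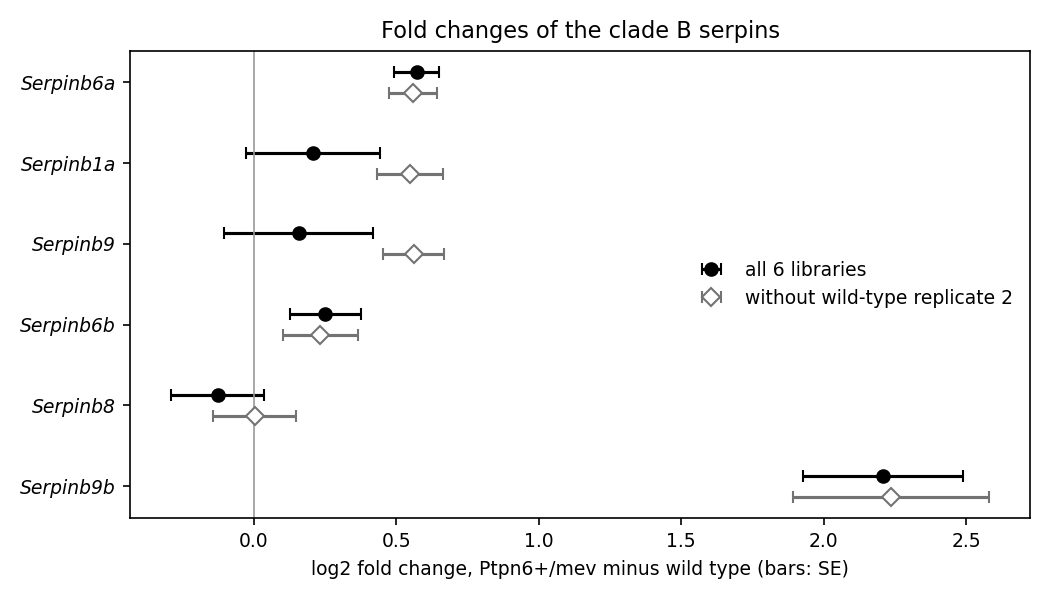
Log2 fold change of each clade B serpin, Ptpn6+/mev minus wild type, from edgeR's fit of the counts with all 6 libraries (black) and without wild-type replicate 2 (grey diamonds); bars are SE. Serpinb1a moves from 0.21 to 0.55 and Serpinb9 from 0.16 to 0.56 when that library is left out, while Serpinb6a, Serpinb6b and Serpinb9b stay near 0.57, 0.25 and 2.21.

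With the study's FDR threshold of 0.05, edgeR's quasi-likelihood test called 18 of 13036 genes (0.138%), Serpinb9b among them and none of the other members. The paper names no test for its own calls and reported more genes at this threshold. DESeq2 and edgeR's exact test, which called 387 (2.97%) and 390 (2.99%) genes, each called Serpinb9b and Serpinb6a. When wild-type replicate 2 was left out, edgeR's quasi-likelihood test called 237 of 13177 genes (1.80%), and 4 members were among them, Serpinb1a, Serpinb6a, Serpinb9 and Serpinb9b. In that setting 5 of 6 members were higher in every Ptpn6+/mev mouse than in both remaining wild-type mice, as were 21.1% of all tested genes, and the median log2 fold change was 0.55 over the members and -0.0040 over all tested genes. Because the members were chosen on this contrast, and Serpinb9b passed the filter only through its higher group, these calls are no evidence of a difference and are read no further.

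The members followed more than a single profile over the 6 libraries. Profiles of log2 CPM were standardized to mean 0 and SD 1, and the root mean square distance between a pair was taken, where 0 is an identical profile. Serpinb6a and Serpinb9b were the closest pair at 0.12, followed by Serpinb1a and Serpinb9 at 0.17. The other 13 pairs were 0.58 to 1.52 apart, and Serpinb8 was at least 0.82 from every other member. Of the genes outside the members, Klkb1 (plasma kallikrein, a serine protease), Angpt4, Bri3, Glce and Brca2 had the profiles nearest to the members' mean, at distances of 0.11 to 0.14 over 6 libraries. The members themselves were 0.52 to 1.12 from that mean, so these genes are near an average that no single member follows closely. Klkb1 was at only 0.35 to 0.46 FPKM in the Ptpn6+/mev mice and 0.05 to 0.31 in the wild-type mice, and none of these 5 passed the test (adjusted p from 0.431 to 0.660, edgeR).

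The other 21 clade B serpins were at or near 0. Of these, 12, such as Serpinb6c and Serpinb7, are listed at 0 in every library, and no library held more than 11 counts of any of the 21. Serpinb5, the gene of maspin, was the highest, at 0.08, 0.41 and 0.33 FPKM in the Ptpn6+/mev mice and 0.00, 0.14 and 0.13 FPKM in the wild-type mice. Serpinb1b, the closest relative of Serpinb1a (89.9% identical over the coding sequence), was at 0.06, 0.11 and 0.16 FPKM against 0.00, 0.00 and 0.14 FPKM. None of the 21 passed the filter on low counts. In the fit with no filter 9 of them were tested and none passed (adjusted p from 0.577 to 0.919, edgeR quasi-likelihood).

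Of the 35 serpins of other clades, which are mostly secreted, 16 were tested and none passed the quasi-likelihood test. At an unadjusted p under 0.05 there was 1 higher and 3 lower, where 12.2% of all tested genes passed in either direction, and the median of the 16 log2 fold change was -0.09. Among the most abundant were Serpinh1, a collagen chaperone without inhibitory activity, Serpinf2 (alpha-2-antiplasmin) and Serping1 (C1 inhibitor). Serpinh1 had a log2 fold change of 0.33 ± 0.29 (SE), with 94.3 FPKM in wild-type replicate 2 against 207.5 to 270.9 FPKM in the other libraries, and 0.03 without that library. Serping1 had a log2 fold change of -0.16 ± 0.27, and -0.45 ± 0.10 without wild-type replicate 2 (adjusted p = 0.060, edgeR quasi-likelihood), where the groups were apart. Serpinf2 was at 16.14, 32.65 and 18.87 FPKM in the Ptpn6+/mev mice and 63.02, 37.26 and 54.57 FPKM in the wild-type mice, groups that did not overlap. Its log2 fold change was -1.22 ± 0.28 (adjusted p = 0.134, edgeR quasi-likelihood). DESeq2 called Serpinf2 and Serpina1a, and the exact test and the fit without wild-type replicate 2 called Serpinf2, all as lower in Ptpn6+/mev kidneys.

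Proteases that clade B serpins inhibit, with their relatives and the perforin gene Prf1, formed a list of 34 genes, of which 14 were tested. None passed the quasi-likelihood test, and at an unadjusted p under 0.05 there were 2 higher and 1 lower (12.2% of all tested genes), with a median log2 fold change of 0.01. Their summed FPKM was 2167.8 to 2402.3 in the Ptpn6+/mev mice and 1862.9 to 2075.9 in the wild-type mice. These ranges did not overlap, but they did once Ctsl was left out, at 1034 to 1187 FPKM and 998 to 1074 FPKM. The most abundant were the lysosomal cathepsins Ctsl, Ctsb and Ctsh and the urokinase gene Plau. Ctsl was at 1133.76, 1215.15 and 1163.93 FPKM in the Ptpn6+/mev mice and 1012.83, 840.07 and 1002.23 FPKM in the wild-type mice, with a log2 fold change of 0.21 ± 0.08 (adjusted p = 0.325, edgeR). Ctsb, Ctsh and Plau had log2 fold changes of 0.07, -0.15 and -0.06, and of 0.02, -0.02 and 0.09 without wild-type replicate 2. Furin, the target of Serpinb8, was at 59.78 to 98.31 FPKM over all libraries and had a log2 fold change of -0.01 ± 0.13 (-0.13 without that library).

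The granule proteases were near 0. Elane and Ctsg, which encode neutrophil elastase and cathepsin G, had 1 count in 1 library each and none elsewhere. The proteinase 3 gene Prtn3 reached at most 1.82 FPKM, in wild-type replicate 2, the granzyme B gene Gzmb 0.84 FPKM, the granzyme A gene Gzma 0.53 FPKM and the granzyme M gene Gzmm 0.45 FPKM. None of these passed the filter on low counts.

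Plat (tissue plasminogen activator) and Pcsk5, a relative of furin, were chosen after their values were seen. Plat was at 162.61, 157.73 and 159.37 FPKM in the Ptpn6+/mev mice and 80.88, 85.93 and 113.63 FPKM in the wild-type mice, with a log2 fold change of 0.71 ± 0.12 (adjusted p = 0.079, edgeR quasi-likelihood). Pcsk5 had -0.62 ± 0.14 (adjusted p = 0.133). DESeq2, the exact test and the fit without wild-type replicate 2 each called both genes, Plat as higher and Pcsk5 as lower.

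**Figure D4:**
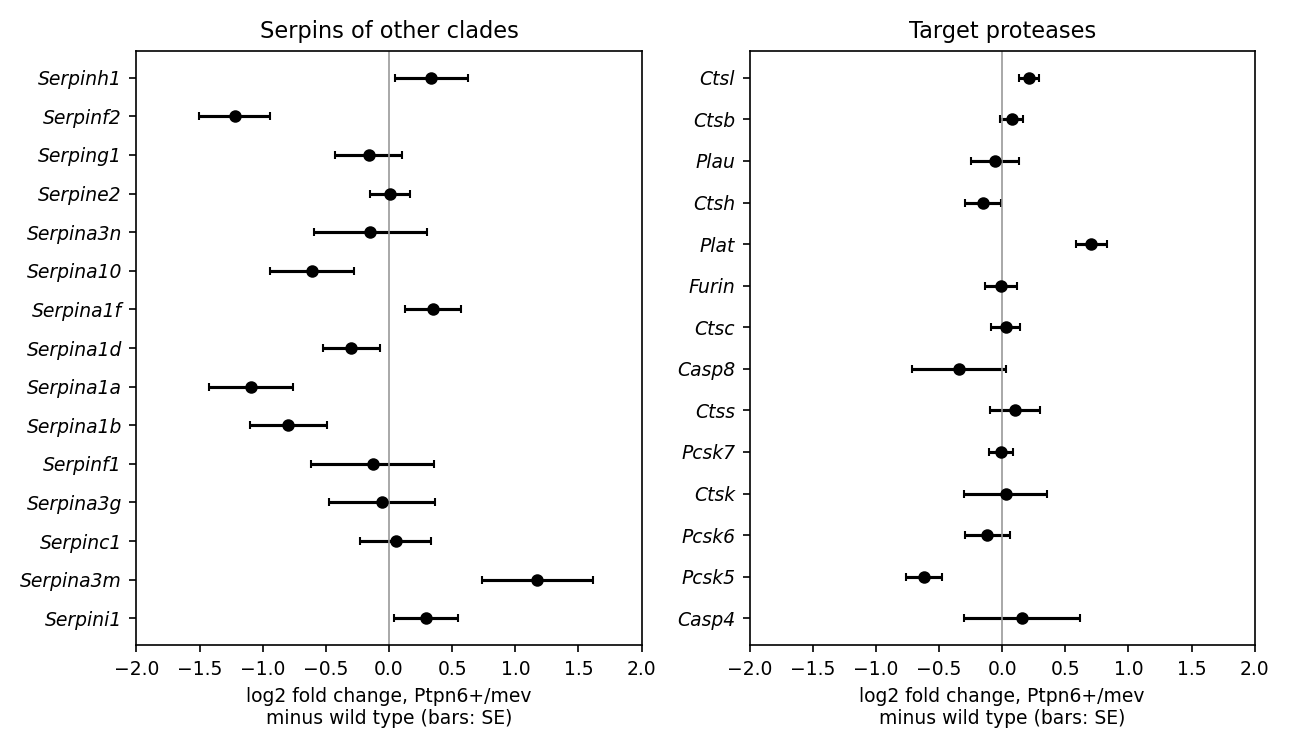
Log2 fold change, Ptpn6+/mev minus wild type, of tested serpins of other clades (15 genes, left) and of the tested target proteases (14 genes, right), most abundant at the top; bars are SE. None of those shown passed FDR 0.05 in the quasi-likelihood test, and Serpinf2 lies at -1.22, Serpina3m at 1.17 and Plat at 0.71.

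Markers of the cells that could carry these genes were read beside them. Neutrophil markers summed to 25.4 to 59.0 FPKM in the Ptpn6+/mev mice and 27.1 to 45.7 FPKM in the wild-type mice, and 5 of 10 were tested with none past the threshold. The 9 T and NK cell markers in the table summed to 0.43 to 1.18 FPKM and 0.85 to 3.15 FPKM. None of the 9 passed the filter on low counts, and none was listed at 0 in every library. The library with the highest Serpinb1a and Serpinb9, wild-type replicate 2, had the lowest macrophage and monocyte sum and 27.1 FPKM of neutrophil markers. Markers of the injured tubule and of the distal nephron were mixed in that library: Spp1, Krt20, Aqp2, Calb1 and Atp6v1g3 were at their highest of the 6 libraries, Vcam1 and Sox9 at their lowest, and the rest of both lists in between. These genes were named after their values were seen. The part of cell makeup in these levels was not tested.

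Proximal tubule markers were the only 1 of the 12 cell type lists whose sums did not overlap over all 6 libraries, at 456.5 to 568.7 FPKM in the Ptpn6+/mev mice and 603 to 731 FPKM in the wild-type mice. Without Slc22a6 they overlapped, at 385 to 469.7 FPKM and 421 to 551 FPKM. None of its 8 genes passed the test, 4 were lower at an unadjusted p under 0.05 (12.2% of all tested genes passed in either direction), and the median log2 fold change was -0.44. Slc34a1, the phosphate transporter, had a log2 fold change of -0.34 ± 0.20 and Slc22a6, the organic anion transporter, one of -1.11 ± 0.19 (adjusted p = 0.567 and 0.077, edgeR). Without wild-type replicate 2 these were -0.55 and -0.99 (adjusted p = 0.051 and 0.027). These sums were apart in the same libraries as Serpinb6a, Serpinb6b and Serpinb9b, in the opposite direction, and their part in those differences was not tested. The injured tubule sums overlapped but were mostly Spp1, at 20881 to 32920 FPKM. Its genes Havcr1 (1436 to 1565 against 1087 to 1262 FPKM), Krt18 and Vcam1 were each higher in every Ptpn6+/mev library. None of the 7 genes of this list passed the test. At an unadjusted p under 0.05, 3 were higher and 1, Spp1, lower (12.2% of all tested genes passed). The median log2 fold change was 0.16. Their part in the members' differences was not tested. Without wild-type replicate 2 the fibroblast sums were also apart, at 63.6 to 86.4 FPKM in the Ptpn6+/mev mice and 105.9 to 107.1 FPKM in the wild-type mice, and 2 of the 4 fibroblast genes, Pdgfra and Dcn, were called as lower. In the same setting Lrp2, Slc22a6 and Cubn of the proximal tubule list were called as lower, and Krt20 and Krt18 of the injured tubule list as higher (adjusted p = 0.029 and 0.038, edgeR quasi-likelihood). Mast cell sums, at most 0.23 FPKM, were apart in that setting as well. The part of these shifts in the members' values was not tested. DESeq2 called Slc22a6 and Cubn of the proximal tubule list as lower, and Krt18 and Vcam1 of the injured tubule list as higher. The exact test called Slc22a6, Cubn and Vcam1 in the same directions, but not Krt18. In the fit with no filter on low counts Slc22a6 was called as lower (adjusted p = 0.048, edgeR quasi-likelihood).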

How the data were processed

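Kidney poly-A RNA of 3 Ptpn6+/mev and 3 wild-type mice was analysed, grouped by the labels. The authors used TopHat to align reads to GRCm38 and Cufflinks for expression; the submitters' processing notes also name Bowtie2 and RSEM. They deposited expected counts and FPKM values for 21367 genes in 1 table, and every per-sample column was used. The authors' FPKM values give levels per length. The deposited expected counts, fractional in 1744 genes, were rounded. Total counts ranged from 10271590 to 12361745, and depth limits precision mainly for genes near 0.

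Differences were fitted with edgeR 4.0.16 in R 4.3.3 (TMM, filterByExpr, quasi-likelihood F-test). P-values were adjusted by Benjamini-Hochberg across the 13036 genes tested, with a threshold of 0.05. On simulated data for this comparison (13036 genes), 81% of genes changed 2-fold and 99% of those changed 4-fold were recovered, and 8.16% of calls were false. The changed genes were drawn only from those with higher mean counts. These recovery rates therefore do not cover genes with counts as low as those of Serpinb9b (9 to 45). Alternatives used DESeq2 1.42.0, limma 3.58.1, other scalings and filters, a replicate block, and each library left out. Sequences came from GENCODE M21 and RefSeq, read with Python 3.11.15 and Biopython.

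The members and lists were chosen with earlier results of these data known. The naming rule took all members, other clade B serpins with a mean of at least 0.1 FPKM in a group, called genes of the other lists or else the 4 most abundant of each (for markers, the 2 most abundant of lists whose sums do not overlap), and the 5 genes nearest in profile. For 1 gene within this rule, no value is reported here. Other names were chosen after their values were seen.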

Additional observations from a re-analysis of the deposited data

How the results depend on the processing

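The quasi-likelihood test called 18 genes, 1 of them a member (Serpinb9b). DESeq2's Wald test called 387 genes and 2 members, edgeR's exact test 390 and 2, and the fit with no filter on low counts 52 and 2, with Serpinb6a the added member each time. A minimum of 10 counts in every library left Serpinb9b out and called 17 of 12315 genes and 0 members. Leaving out 1 library gave 1 to 237 genes and 0 to 4 members. The highest values came without wild-type replicate 2, and 0 members were called without each of the other 5 libraries. Without wild-type replicate 3 there were 67 genes. The fit with the replicate number as a block called 1 gene and 0 members. Same-numbered mice correlated at -0.14, -0.18 and -0.13 in their deviations from the group means, and differently numbered mice at -0.01 to 0.16. With 3 mice per group the deviations depend on each other, so these values cannot decide whether the numbers pair the mice. Of the serpins of other clades, 0 were called in the reported fit, 2 by DESeq2, 1 by the exact test and 0 to 1 with a library left out. Of the target proteases, 0 were called in the reported fit, 2 by DESeq2, 2 by the exact test and 0 to 2 with a library left out, Plat alone without wild-type replicate 3. Of the other clade B serpins, 0 of 9 were called with no filter on low counts, and none passed the filter of the reported fit. Of the members' log2 fold changes under the 15 alternatives, 85 of 89 values were within 1 SD of the replicates from the reported one. The 4 others came from limma on log2 FPKM, 0.64 and 0.65 for Serpinb6a, and 0.83 (pseudocount 1) and 1.91 (pseudocount 0.1) for Serpinb9b, where a pseudocount near the level understates a fold. The SD of the replicates was 0.37 for Serpinb1a and 0.42 for Serpinb9. Their log2 fold changes with a library left out, 0.05 to 0.55 and -0.03 to 0.56, therefore counted as within it. For these genes the count of values within 1 SD does not show stability. Counts of 9 and 10 limit the wild-type level of Serpinb9b. The causes of the other changes were not tested.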
